A study of Mus musculus with 79 samples.

Results

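Embryoid bodies grown from a mouse embryonic stem cell (ESC) line without TET enzymes were followed over the days in which primitive streak genes come on. The libraries were chosen by their labels alone: 3 libraries of TET KO embryoid bodies at day 4 (EB D4) and 2 at day 2 (EB D2), which are 5 of the 79 libraries of the series. All genes of the deposited table were read in them. TET KO is a line with knockouts of Tet1, Tet2 and Tet3, and TET WT, with 3 libraries at EB D4 and 3 at EB D2, is the wild-type line from which it was derived. DNMT WT, with 2 libraries at EB D4 and 3 at EB D2, is the wild-type parent of a knockout of Dnmt1, Dnmt3a and Dnmt3b, and served as another wild-type line. That knockout line, DNMT KO, with 3 libraries at EB D4 and 2 at EB D2, entered the model fit, where it helped to set the spread, and no comparison. All lines were ESCs in 2i/LIF, a medium that holds them in the naive state, before they were differentiated. Each genotype was 1 line, so that the loss of the TET enzymes and any other difference between the lines cannot be told apart. Nothing in the labels says that libraries of a group came from separate cultures, and the p-values may measure technical spread only.

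TET enzymes oxidise 5-methylcytosine, which leads to the loss of DNA methylation at regulatory sequences. In the embryo, Nodal, BMP and Wnt signals induce the primitive streak at the posterior side of the epiblast, and cells leave it as mesoderm and definitive endoderm after an epithelial to mesenchymal transition. Embryoid bodies are aggregates of ESCs that pass through an epiblast-like state and then switch on streak genes in culture.

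RNA was captured with oligo-dT and sequenced with strand kept. Levels are given as RPKM, reads per kilobase of gene and per M reads, converted from the deposited log2 values. Changes were tested on log2(RPKM + 0.5) with limma over 15267 genes, and a call, higher or lower, needed a size of at least 1 in log2 and a Benjamini-Hochberg adjusted p below 0.05. All adjusted p-values of genes are from this limma fit. The deposited values fell on steps of whole reads, which gave depths of 10.8 to 11.2 M reads for the TET KO libraries at EB D4 and of 9.43 and 10.95 M reads at EB D2. Where a gene had no read, its deposited value equals that of 0.9 reads, and a fold against such a group is given as a lower bound computed against 3 reads over the group.

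The promoters of T and Sp5 are shown because both genes were among the 3 largest rises on the log2(RPKM + 0.5) scale, which understates the change of genes with few reads at EB D2, and both are known Wnt/β-catenin targets in the mouse. Each run is the 250 bases before the RefSeq start of the gene (GRCm38.p6, plus strand), at chr17:8434173-8434422 for T and at chr2:70474673-70474922 for Sp5. Capitals mark the TCF/LEF core CTTTGA or its reverse complement TCAAAG, the letters that TCF/LEF factors are known to bind.
T promoter: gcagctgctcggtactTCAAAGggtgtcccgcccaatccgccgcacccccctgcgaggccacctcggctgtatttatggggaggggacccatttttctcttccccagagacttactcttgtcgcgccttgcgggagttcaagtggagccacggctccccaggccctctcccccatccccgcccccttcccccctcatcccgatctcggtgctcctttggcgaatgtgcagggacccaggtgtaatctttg
Sp5 promoter: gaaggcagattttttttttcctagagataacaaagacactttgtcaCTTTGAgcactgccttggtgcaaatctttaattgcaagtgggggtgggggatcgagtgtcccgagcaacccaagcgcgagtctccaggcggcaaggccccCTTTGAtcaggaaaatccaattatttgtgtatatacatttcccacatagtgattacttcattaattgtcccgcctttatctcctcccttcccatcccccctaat
The T promoter held 1 core at base -234 from the start, on the opposite strand, and 14 CpG sites. The Sp5 promoter held cores at bases -204 and -104, both on the strand of the gene, and 6 CpG sites. The core was present in 2 of the 9 primitive streak promoters found in the table, which are those of T and Sp5. Mixl1, the other of the 3 largest rises, had no promoter among the sequences used. It was present in 10.2% of 889 promoters of genes called higher, in 11.6% of 389 promoters of genes called lower, and in 10.8% of 11174 promoters of all genes tested. A match of these letters is a description of the sequence, and binding was not measured here.

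The targeted genes were read first. Tet1 had 4.04, 4.63 and 4.78 RPKM in TET KO embryoid bodies at EB D4, against 8.32 and 9.68 RPKM at EB D2, and its log2 change of -0.93 (SE 0.21, adjusted p = 0.00124) stayed short of a call. In TET WT, Tet1 averaged 10.2 ± 2.1 RPKM at EB D4 and 24.1 ± 2.5 RPKM at EB D2 (SD, n = 3 each). Tet2 fell by 1.09 on the log2 scale in TET KO, to 0.991 ± 0.169 RPKM at EB D4 (n = 3), against 2.67 ± 0.11 RPKM at EB D2 (n = 2). In TET WT it fell by 2.35, to 0.981 ± 0.194 RPKM at EB D4, against 6.998 ± 0.425 RPKM at EB D2 (n = 3 each). The Tet2 change in TET KO minus that in TET WT was 1.25 and was called (adjusted p = 0.000665), and against DNMT WT it was -0.24 and not called. Tet3 had 1.53 ± 0.19 RPKM at EB D4 and 1.24 ± 0.08 RPKM at EB D2 and was not called. Transcripts of all 3 genes were therefore present in TET KO, and since the sources used here do not give the deleted exons, a value over the whole gene does not test the genotype.

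Between EB D4 and EB D2, 1754 of 15267 genes (11.5%) were called in TET KO, of which 1204 (7.89%) were higher and 550 (3.6%) lower at EB D4. In TET WT, 1539 genes (10.1%) were called, 790 (5.17%) higher and 749 (4.91%) lower. The excess of rises in TET KO moved with the scaling: 68.6% of its calls were higher as deposited, 48.4% after centring each library on its median and 55.1% after quantile normalization. Centring moved the median change of all genes by more than 0.1, to -0.16 on the log2 scale from 0.05 as deposited, because the median of the TET KO libraries was 2.43 to 2.45 at EB D4 and 2.22 at EB D2 in log2 RPKM. Changes of the genes named below are read against this shift. Genes called higher in both lines numbered 377, which is 31.3% of the TET KO rises and 47.7% of the TET WT rises. Genes called lower in both lines numbered 268, which is 48.7% of the TET KO falls and 35.8% of the TET WT falls.

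Among the libraries used, replicate 2 of TET WT at EB D4 stood apart. It had the lowest depth, 7.76 M reads, and 12.2% of its reads lay on Gm42418, a gene with ribosomal RNA sequence, against at most 0.15% in the TET KO libraries. Without it, 1038 genes were called higher and 648 lower in TET WT, against 790 and 749 with it. Among the lists read below, the count of higher differences from TET WT became 4 in place of 5 for Wnt ligands, 5 in place of 6 for BMP genes, 0 in place of 1 for visceral endoderm, 2 in place of 4 for germline genes and 8 in place of 10 for two-cell-like genes, and it moved by 1 or 2 in some other lists. The streak, organiser and nascent mesoderm lists had 7, 9 and 7 called both with and without it. Replicate 1 of TET WT at EB D2 also stood apart, by less, with 2.12% of its reads on Gm42418 and chi-square values per gene of 29.4 and 26.6 against the other replicates, beside 3.58 between those. Without it the difference from TET WT was called higher for 970 genes and lower for 372. The 2 DNMT KO libraries at EB D2, which enter only the spread, had a chi-square value per gene of 30.8 against each other. Ribosomal protein genes took 8.59% of reads in replicate 2 of that group and 5.46% in replicate 3. With only TET KO and TET WT libraries in the fit, 1198 genes were called higher and 544 lower in TET KO. Reads on mitochondrially encoded genes made up 1.46% to 1.79% of TET KO libraries at EB D4 and 0.795% and 1.36% at EB D2, and mt-Cytb was the 1 of 13 such genes that was called higher, a call lost after centring. In bulk samples, more cells of a kind and more RNA per cell cannot be told apart.

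The primitive streak genes rose together and steeply in TET KO. Of 13 tested members of the list, 10 were called higher at EB D4 and 0 lower, with a median log2 change of 3.49, beside 0.05 over all genes tested. T, the brachyury transcription factor that marks the streak and is required for mesoderm, had 404, 398 and 379 RPKM at EB D4, against 0.229 and 0.316 RPKM at EB D2. Its log2 change of 9.0 (SE 0.26, adjusted p = 3.86e-15) was the largest rise among the named genes on this scale. Mixl1, a homeobox factor of the streak, had 185, 187 and 185 RPKM at EB D4, against 0.647 and 0.597 RPKM at EB D2 (log2 change 7.38, SE 0.31, adjusted p = 1.21e-12). The spread between libraries was small beside these changes, and no EB D4 library came near an EB D2 library.

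Eomes, a T-box factor that acts upstream of mesendoderm, was already present at EB D2. It had 78.1, 74.9 and 78.99 RPKM at EB D4, against 7.61 and 6.51 RPKM at EB D2 (log2 change 3.37, SE 0.19, adjusted p = 9.25e-12). Evx1, a homeobox factor of the posterior streak, had 44.3, 38.3 and 40.8 RPKM at EB D4 and no read in either library at EB D2, which makes it at least 803-fold higher. Sp5, a zinc-finger factor and target of Wnt signalling, had 112, 106 and 109.8 RPKM at EB D4, against 0.354 and 0.0435 RPKM at EB D2. The lower of those EB D2 values is the value of a gene without a read. Fgf8, a growth factor that streak cells need in order to migrate, had 143, 123 and 128 RPKM at EB D4, against 1.49 and 1.22 RPKM at EB D2 (log2 change 6.15, SE 0.21, adjusted p = 1.42e-14).

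Other members of the list rose less. Fst, which encodes the activin antagonist follistatin, had 93.6 RPKM on average at EB D4 and 4.92 RPKM at EB D2 (log2 change 4.12). Wnt3, the ligand needed for streak formation, had 12.6, 12.9 and 10.9 RPKM at EB D4, against 0.828 and 0.445 RPKM at EB D2 (log2 change 3.49). Sp8 and Wnt8a were called at log2 changes of 1.90 and 1.57. The 3 members not called were Tdgf1, Fgf17 and Nkx1-2. Tdgf1, the Nodal co-receptor Cripto, was among the most abundant of the list and had 686 RPKM on average on each day. Wnt3a did not reach the level needed for the test.

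**Figure D1:**
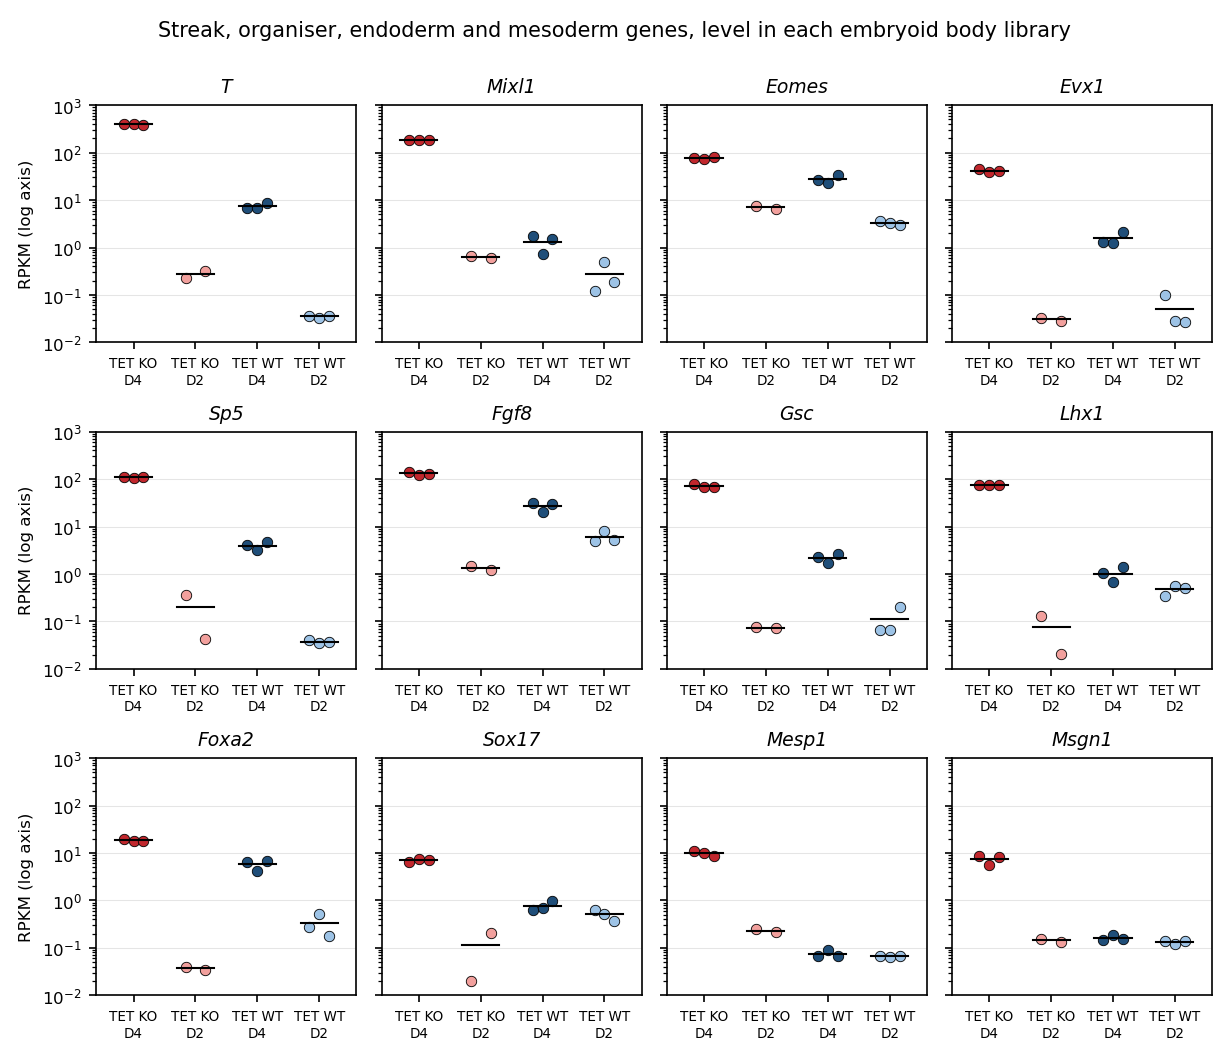
Each panel gives the level of 1 gene in RPKM on a log axis, with 1 point per library and a line at the group mean, for TET KO (red) and TET WT (blue) at EB D4 and EB D2. In TET KO all 12 genes lie higher in every EB D4 library than in every EB D2 library. Over all genes tested, 10463 of 15267 (68.5%) did not overlap between the days in TET KO, counting both directions. Mesp1 and Msgn1 lie near the value of a gene without a read on both days in TET WT.

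TET WT also raised the streak list, and its main transcription factors reached lower levels there at EB D4. In TET WT 10 of 13 members were called higher and 0 lower, with a median log2 change of 1.88. T had 6.67, 6.73 and 8.80 RPKM in TET WT at EB D4 and a single read over the 3 libraries at EB D2. Mixl1 averaged 1.33 ± 0.53 RPKM at EB D4 and 0.272 ± 0.205 RPKM at EB D2 (SD, n = 3 each), and Evx1 averaged 1.56 ± 0.50 RPKM at EB D4 and 0.0514 ± 0.0411 RPKM at EB D2. Eomes averaged 27.7 ± 5.4 RPKM at EB D4 and 3.32 ± 0.27 RPKM at EB D2, so that it was closer between the lines at EB D4 than the other 3 factors.

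Whether the change differed between the lines was tested as the TET KO change minus the TET WT change. The difference was called for 1337 of 15267 genes (8.76%), 939 (6.15%) higher and 398 (2.61%) lower. Without replicate 2 of TET WT at EB D4 the counts were 767 higher and 539 lower. The share of higher differences was 70.2% as deposited, 50.2% after centring and 57% after quantile normalization. In the streak list, 7 of 13 members were called with a more positive change in TET KO and 0 with a more negative one. Mixl1 differed by 6.14 (SE 0.41, adjusted p = 4.44e-09), Evx1 by 4.41, Sp5 by 4.30 and Fgf8 by 4.05. The Sp5 value depends on the pseudocount, because Sp5 had no read in TET WT at EB D2. Summed reads gave a 584-fold rise of Sp5 in TET KO and a rise of at least 96.8-fold in TET WT. Eomes differed by 0.50 (adjusted p = 0.181) and was not called, and Wnt8a rose by 1.57 in each line.

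The difference for T depended on the scale. On log2(RPKM + 0.5) it was 5.12 (SE 0.36, adjusted p = 3.88e-09). On recovered reads fitted with voom it was 2.31 (adjusted p = 0.191) and was not called, and the number of streak members called fell to 4. Summed reads gave a 1428-fold rise in TET KO and a 594-fold rise in TET WT, the second with an exact 95% counting interval of 106 to 23520 because it rests on 1 read at EB D2. The level at EB D4 was 394 ± 13 RPKM in TET KO and 7.40 ± 1.21 RPKM in TET WT (SD, n = 3 each).

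Set against DNMT WT in place of TET WT, an alternative added after the data were seen, the difference was called for 889 genes (5.82%), 617 (4.04%) higher and 272 (1.78%) lower. In the streak list this difference was called higher for 6 of 13 members and lower for 2, with a median of 0.63, beside 1.33 against TET WT. DNMT WT stood between the lines for several streak genes. T averaged 29.3 RPKM in DNMT WT at EB D4 and 0.279 RPKM at EB D2, and the change in TET KO was larger by 3.76. Mixl1 averaged 17.8 RPKM at EB D4 and 0.430 RPKM at EB D2 there, and its change in TET KO was larger by 3.12. Eomes went the other way: it averaged 61.9 RPKM at EB D4 and 2.45 RPKM at EB D2 in DNMT WT, and its change was smaller in TET KO by 1.04, a called difference. The levels of these genes at EB D4 thus were not alike in the wild-type lines, a comparison that was not tested.

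**Figure D2:**
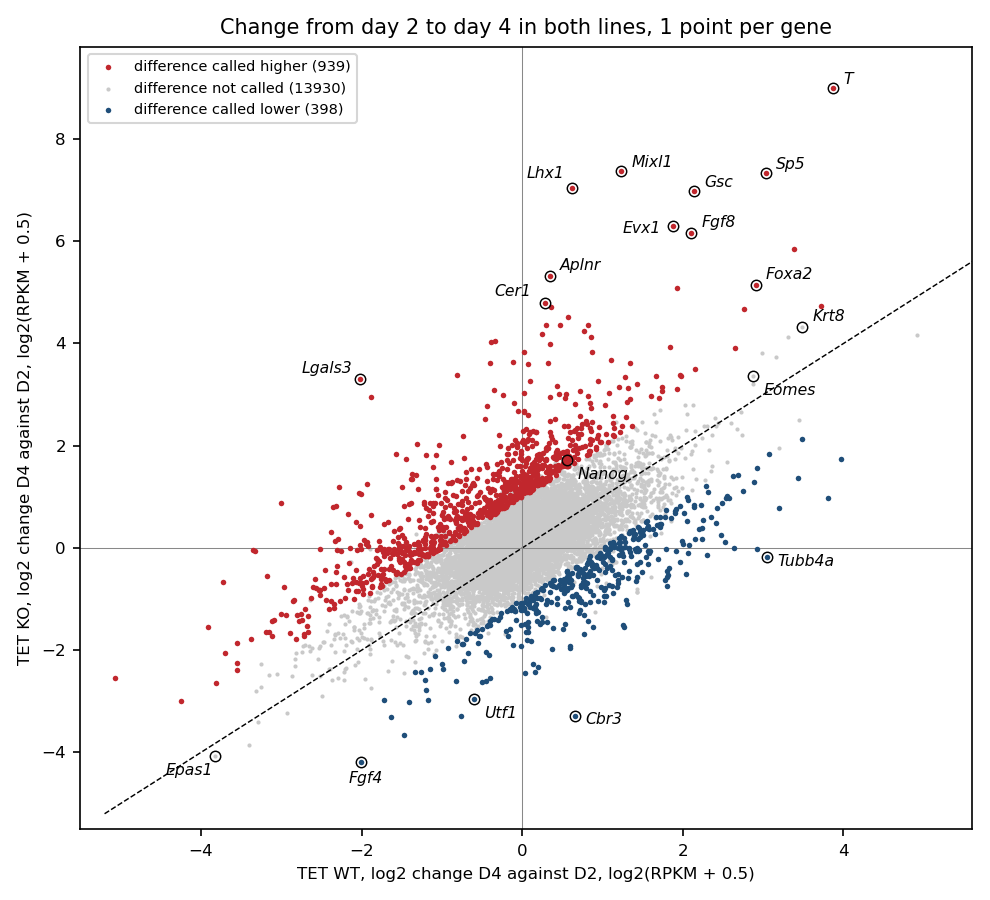
Each point is 1 of 15267 genes, with the log2 change of EB D4 against EB D2 in TET KO on the vertical axis and in TET WT on the horizontal axis, both on log2(RPKM + 0.5), and the dashed line marks equal change. Red points (939) were called with a more positive change in TET KO and blue points (398) with a more negative one, and the streak and organiser genes stand at the top while Eomes and Krt8 lie close to the line.

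Genes of the organiser and axial mesendoderm rose with the streak genes. The anterior end of the streak forms the organiser, which secretes inhibitors of Wnt, BMP and Nodal. In TET KO, 10 of 12 tested members were called higher and 0 lower, with a median log2 change of 4.20, and in TET WT 3 of 12 were called higher, with a median of 0.45. The difference between the lines was called higher for 9 of the 12 and lower for 0.

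Gsc, a homeobox factor of the organiser, had 77.9, 68.3 and 69.7 RPKM in TET KO at EB D4, against 0.0753 and 0.0720 RPKM at EB D2. Only 1 read stood behind the EB D2 values, so the ratio of summed reads was 1857, with an exact 95% counting interval of 333 to 73380. Lhx1, a LIM-homeobox factor that partners with organiser factors, had 74.3, 74.6 and 75.0 RPKM at EB D4, against 0.130 and 0.0202 RPKM at EB D2. In TET WT it averaged 1.02 ± 0.35 RPKM at EB D4 and 0.473 ± 0.113 RPKM at EB D2 (SD, n = 3 each) and was not called. The Lhx1 difference of 6.41 (SE 0.39, adjusted p = 9.05e-10; 9.83 on recovered reads) was the largest positive one among the genes named by the rule.

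Foxa2, a forkhead factor of the anterior streak, node and endoderm, had 19.3, 18.1 and 18.1 RPKM in TET KO at EB D4 and no read at EB D2, at least 297-fold higher. TET WT also raised Foxa2, to 5.73 ± 1.45 RPKM at EB D4, against 0.328 ± 0.177 RPKM at EB D2 (SD, n = 3 each), and the change in TET KO was larger by 2.24 (adjusted p = 3.95e-05). In DNMT WT the gene averaged 20.6 RPKM at EB D4 and 0.351 RPKM at EB D2, and the difference from TET KO was 0.51 and not called. Foxa2 thus differed from Gsc and Lhx1, whose changes in TET KO were larger than in DNMT WT by 2.73 and 5.12.

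The secreted inhibitors of the list rose as well. Cer1, which binds Nodal, BMP and Wnt ligands, had 16.3, 13.5 and 14.9 RPKM in TET KO at EB D4 and no read at EB D2, at least 175.5-fold higher. Dkk1, a Wnt inhibitor, had 11.4, 9.01 and 8.89 RPKM at EB D4, against 0.219 and 0.0339 RPKM at EB D2 (log2 change 4.04). Frzb, a secreted Frizzled-related protein, averaged 11.7 RPKM at EB D4 and 0.0915 RPKM at EB D2 (log2 change 4.36). Chrd, the BMP antagonist chordin, averaged 3.49 RPKM at EB D4 and 0.568 RPKM at EB D2 (log2 change 1.91). In TET WT, Cer1, Dkk1, Frzb and Chrd were not called, and the difference between the lines was called for each, at 4.52, 4.38, 3.89 and 1.48, with Dkk1 at 7.68 on recovered reads. Shh, which marks the later notochord, had no read on either day in TET KO.

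Definitive endoderm genes were called in part through keratins that both lines raised. Of 13 members, 10 were called higher in TET KO and 0 lower (median log2 change 2.14), and 4 were called higher in TET WT (median 0.32). Sox17, the endoderm transcription factor, had 6.29, 7.38 and 7.14 RPKM in TET KO at EB D4, against 0.02 and 0.211 RPKM at EB D2 (log2 change 3.61, SE 0.19, adjusted p = 3.83e-12). In TET WT it averaged 0.768 ± 0.195 RPKM at EB D4 and 0.510 ± 0.131 RPKM at EB D2 (SD, n = 3 each) and was not called, a difference of 3.29 (6.44 on recovered reads). Gata6, a factor of endoderm and early mesoderm, had 11.8, 9.96 and 12.8 RPKM at EB D4 in TET KO, against 0.554 and 0.744 RPKM at EB D2. Cxcr4, a chemokine receptor of migrating mesendoderm, averaged 4.53 RPKM at EB D4 and 0.374 RPKM at EB D2. Krt8, an epithelial keratin, averaged 192 RPKM at EB D4 and 9.19 RPKM at EB D2 in TET KO, against 37.9 RPKM at EB D4 and 2.85 RPKM at EB D2 in TET WT, and its difference of 0.83 was not called. Its partner Krt18 rose by 2.14 in TET KO and by 3.48 in TET WT, and that difference of -1.35 was called.

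Nascent mesoderm genes were called in part. Of 14 tested members, 7 were called higher and 1 lower in TET KO, against 2 higher and 2 lower in TET WT, and the difference was called higher for 7 and lower for 0. Mesp1, a basic helix-loop-helix factor of the earliest cardiovascular mesoderm, had 10.9, 10.1 and 8.74 RPKM in TET KO at EB D4, against 0.250 and 0.215 RPKM at EB D2 (log2 change 3.83, SE 0.12, adjusted p = 1.42e-15). It had no read in any TET WT library at EB D4. Msgn1, a factor of presomitic mesoderm, had 8.50, 5.56 and 8.14 RPKM at EB D4 in TET KO and no read at EB D2, at least 30.8-fold higher. Both genes were on in every TET KO library at EB D4, and the differences from TET WT were 3.80 for Mesp1 (5.99 on recovered reads) and 3.53 for Msgn1.

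Aplnr, the apelin receptor of migrating mesoderm, had 21.8, 19.9 and 19.4 RPKM in TET KO at EB D4 and no read at EB D2, at least 511-fold higher. Its ligand Apln had 17.6, 18.0 and 19.2 RPKM at EB D4, against 0.640 and 0.435 RPKM at EB D2 (log2 change 4.18). In TET WT, Aplnr averaged 0.163 RPKM at EB D4 and 0.0213 RPKM at EB D2, Apln averaged 2.20 RPKM at EB D4 and 1.73 RPKM at EB D2, and neither was called. Tbx6, a T-box factor of paraxial mesoderm, had 1.003 ± 0.080 RPKM at EB D4 and 0.412 ± 0.082 RPKM at EB D2 in TET KO, and its log2 change of 0.72 was not called. Tcf15, known in mice both in somites and in epiblast-stage cells, was the member that fell, to 10.02 RPKM at EB D4, against 62.5 RPKM at EB D2, and it fell in TET WT too.

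Lists for later derivatives of the streak and for other cell types were read in the same libraries. Their counts stand beside 7.89% called higher and 3.6% called lower over all genes tested in TET KO. Lateral mesoderm had 4 of 12 members called higher in TET KO (Bmp4, Gata4, Gata6 and Kdr) and 0 lower, and the Gata4 call was lost after centring. Cardiac muscle had 3 of 13 called higher and 1 lower, and 1 and 1 after centring. Neuroectoderm had 1 of 11 called higher (Nes) and 1 lower (Tubb3, 0.870 RPKM at EB D4 and 6.96 RPKM at EB D2). Trophoblast and primordial germ cell lists had 3 of 10 and 3 of 9 called higher. In TET WT the counts higher and lower were 0 and 2 for lateral mesoderm, 1 and 0 for cardiac muscle and 2 and 2 for neuroectoderm. They were 1 and 0 there for trophoblast and 1 and 1 for primordial germ cells. The Tead4 call (log2 change 1.11) was lost after centring, after quantile normalization, with a pseudocount of 1 and without replicate 2 at EB D2, which left 2 of 10 trophoblast members after centring. The called members were Cdx2, Tfap2c and Tead4 in the trophoblast list and Prdm1, Tfap2c and Dnd1 in the germ cell list, and Cdx2 and Prdm1 are also known in the streak and endoderm of the mouse.

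Visceral endoderm, the extraembryonic layer that surrounds the epiblast, had fewer members called higher in TET KO than in TET WT, and against DNMT WT few differences were called. In TET KO 3 of 16 members were called higher (Apoe, Col4a1 and Sparc), against 10 of 16 in TET WT, and the difference was called lower for 9 and higher for 1. Against DNMT WT it was called lower for 1 and higher for 0 of the 16, with a median difference of -0.09. The Sparc rise of 1.002 lay at the limit of a call and was lost after centring, with a pseudocount of 1 and without either replicate 2 at EB D4 or replicate 1 at EB D2, and after centring the list had 2 called higher and 1 lower. Afp, the fetal serum protein that defines this layer, had no read in any TET KO library on either day, and in TET WT it averaged 0.728 RPKM at EB D4 and 0.0242 RPKM at EB D2. Apoa1 had 1 read over the 3 TET KO libraries at EB D4, against 3.51 RPKM in TET WT at that day. Ttr had 3 reads in TET KO at EB D4 and 3.26 RPKM in TET WT, and Hnf4a had no read in TET KO on either day. The sum of the list was 302 to 314 RPKM in TET KO at EB D4 and 135 to 143 RPKM at EB D2, most of it Apoe. The part that a difference in visceral endoderm content has in the comparisons with TET WT was not tested.

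**Figure D3:**
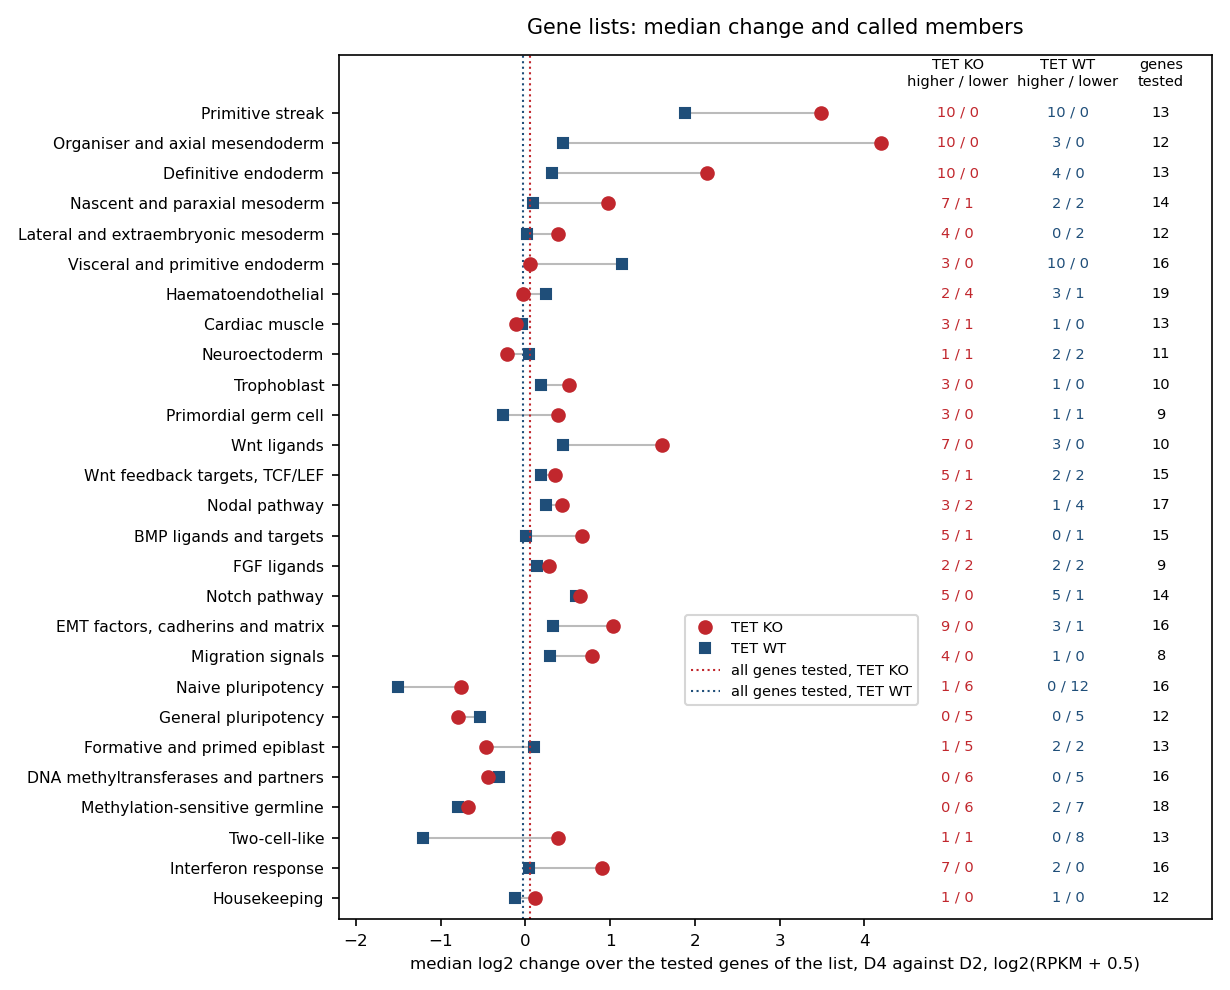
Each row is 1 gene list, with the median log2 change of EB D4 against EB D2 over its tested genes in TET KO (red circles) and TET WT (blue squares), and dotted lines at the medians of all genes tested. The numbers at the right give the members called higher and lower in each line: streak, organiser and definitive endoderm have 10 called higher each in TET KO, while visceral endoderm has 3 in TET KO and 10 in TET WT.

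Blood and endothelial genes were low and split in direction. Of 19 members, 2 were called higher in TET KO (Kdr and Flt1) and 4 lower (Etv2, Tal1, Pecam1 and Tek). Over all genes tested, 7.89% were called higher and 3.6% lower. In TET WT 3 members were called higher and 1 lower. The difference from TET WT was called higher for 1 and lower for 4, and that from DNMT WT for 2 and 2. Kdr, a VEGF receptor of early mesoderm, averaged 1.43 ± 0.12 RPKM at EB D4 and 0.130 ± 0.002 RPKM at EB D2 in TET KO. Etv2, which specifies endothelial and blood progenitors, had 0.976, 0.770 and 0.936 RPKM at EB D4, against 1.92 and 2.79 RPKM at EB D2, and fell by 1.02, a call lost with a pseudocount of 1 and without either replicate 2 at EB D4 or replicate 2 at EB D2. In TET WT it averaged 8.32 ± 2.74 RPKM at EB D4 and 3.00 ± 0.58 RPKM at EB D2 (SD, n = 3 each) and was called higher, a difference of -2.31. In DNMT WT, Etv2 averaged 3.53 RPKM at EB D4 and 5.19 RPKM at EB D2, and the difference of -0.49 was not called (adjusted p = 0.478). Tal1, a blood stem cell factor, fell to 0.0616 RPKM in TET KO at EB D4, against 0.931 RPKM at EB D2, and in TET WT it averaged 1.03 RPKM at EB D4 and 0.807 RPKM at EB D2, a called difference of -1.60. In DNMT WT, Tal1 averaged 0.299 RPKM at EB D4 and 1.55 RPKM at EB D2, and the difference of 0.07 was not called (adjusted p = 0.944). The embryonic globin Hbb-bh1 had no read in TET KO on either day and averaged 1.98 RPKM in TET WT at EB D4.

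Wnt ligands were the signalling list with the most called members in TET KO, 7 of 10 tested higher and 0 lower (median log2 change 1.61), against 3 higher in TET WT (median 0.44). The called ligands were Wnt3, Wnt4, Wnt5a, Wnt5b, Wnt6, Wnt8a and Wnt11. Wnt5b averaged 9.29 ± 0.81 RPKM at EB D4 and 0.858 ± 0.143 RPKM at EB D2, and Wnt5a, a ligand of the planar polarity branch, averaged 2.13 ± 0.20 RPKM at EB D4 and 0.0710 ± 0.0812 RPKM at EB D2. The difference between the lines was called higher for 5 of the 10 ligands, and for 3 on recovered reads. Feedback targets followed in part, with 5 of 15 called higher and 1 lower in TET KO. Axin2, the common readout of Wnt/β-catenin signalling, had 30.5, 27.7 and 29.7 RPKM at EB D4, against 3.37 and 3.18 RPKM at EB D2, and its change exceeded that in TET WT by 2.17. Lef1, a TCF/LEF factor, fell in both lines, by 1.80 in TET KO.

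The Nodal pathway changed less evenly. Of 17 members, 3 were called higher and 2 lower in TET KO, against 1 higher and 4 lower in TET WT. Nodal itself averaged 48.1 RPKM at EB D4 and 27.6 RPKM at EB D2 in TET KO, a log2 change of 0.79 short of a call, and it averaged 32.3 RPKM at EB D4 and 42.5 RPKM at EB D2 in TET WT, so that the difference of 1.2 was called. Its feedback inhibitor Lefty2 averaged 33.7 RPKM at EB D4 and 19.2 RPKM at EB D2 in TET KO, and 39.9 RPKM at EB D4 and 91.2 RPKM at EB D2 in TET WT, a difference of 1.99. Lefty1, another feedback inhibitor, fell by 1.2 in each line. The co-factor Cfc1 rose by 2.74 in TET KO, and Gdf3, a ligand of pluripotent cells, fell by 1.99.

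BMP genes were called in TET KO, 5 of 15 higher and 1 lower, against 0 higher and 1 lower in TET WT, and the difference was called higher for 6. Bmp4 had 7.12, 6.70 and 6.90 RPKM in TET KO at EB D4, against 1.84 and 1.63 RPKM at EB D2. In TET WT it moved oppositely, with 2.05 ± 0.81 RPKM at EB D4 and 6.19 ± 0.52 RPKM at EB D2 (SD, n = 3 each), and the difference was 3.17 (adjusted p = 6.64e-09). Bmp2 and Bmp7 rose by 2.58 and 2.35. Msx1, a homeobox target of BMP signalling, had 27.6, 28.9 and 25.3 RPKM at EB D4, against 0.890 and 0.560 RPKM at EB D2, and differed from TET WT by 3.94. Id2, another BMP target, was the member that fell, by 1.26.

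FGF ligands divided, with Fgf8 and Fgf10 called higher and Fgf4 and Fgf15 lower in TET KO. Fgf10, known for limb and lung bud outgrowth, had 10.6, 11.5 and 11.2 RPKM at EB D4, against 0.0231 and 0.0992 RPKM at EB D2. Fgf4, a ligand of pluripotent cells, was the largest fall among the named genes. It had 2.68, 2.67 and 2.43 RPKM at EB D4, against 56.3 and 55.4 RPKM at EB D2 (log2 change -4.19, SE 0.12, adjusted p = 1.03e-15). Fgf4 averaged 14.9 RPKM at EB D4 and 60.4 RPKM at EB D2 in TET WT, so that it fell there too but by less, and the difference was -2.18. Among ERK feedback genes, Dusp4 and Dusp6 rose by 1.67 and 1.16, and Spry4 fell by 1.02, and the Dusp6 call was lost after centring.

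Notch and retinoic acid genes changed in smaller numbers. In the Notch list 5 of 14 were called higher in TET KO and 0 lower, with Hes1 at 37.2 RPKM at EB D4 and 9.91 RPKM at EB D2, and 5 were called higher in TET WT as well. Cyp26a1, the enzyme that degrades retinoic acid and a streak-stage gene, had 44.4, 38.1 and 40.5 RPKM in TET KO at EB D4, against 0.419 and 1.13 RPKM at EB D2. It rose by 5.08 there and by 1.92 in TET WT, a difference of 3.16. The receptor Rarg fell by 2.41 in TET KO and by 1.67 in TET WT.

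Genes of the epithelial to mesenchymal transition were called higher in TET KO for 9 of 16 members and lower for 0, and for 6 after centring. In TET WT 3 were called higher and 1 lower. Snai1, which represses E-cadherin during gastrulation, had 13.9, 13.2 and 16.6 RPKM at EB D4, against 2.16 and 1.183 RPKM at EB D2. Cdh2, the N-cadherin of mesenchymal cells, had 24.8, 21.6 and 25.5 RPKM at EB D4, against 1.54 and 1.39 RPKM at EB D2 (log2 change 3.64, SE 0.19, adjusted p = 4.3e-12). Vim, the intermediate filament vimentin, had 62.9, 65.7 and 63.7 RPKM at EB D4, against 7.54 and 7.76 RPKM at EB D2. All 3 genes had TET KO libraries at EB D4 far above those at EB D2.

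Neither Cdh2 nor Vim was called in TET WT. Cdh2 averaged 1.78 ± 0.48 RPKM there at EB D4 and 1.94 ± 0.19 RPKM at EB D2, and Vim averaged 14.9 ± 1.9 RPKM at EB D4 and 17.5 ± 0.1 RPKM at EB D2 (SD, n = 3 each), which gave differences of 3.75 and 3.22 between the lines. Cdh1, the E-cadherin of epithelia, was not called in TET KO and averaged 136 RPKM at EB D4 and 114 RPKM at EB D2 (log2 change 0.26, adjusted p = 0.113). The tight junction gene Cldn6 rose in both lines, by 1.57 in TET KO and 2.92 in TET WT. Of 8 migration signals, 4 were called higher in TET KO (Apln, Aplnr, Cxcr4 and Lpar1) and 0 lower.

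Posterior patterning genes were mostly low. Cdx2, a homeobox factor of posterior and extraembryonic tissue, had 12.7, 9.83 and 11.2 RPKM in TET KO at EB D4, against 0.751 and 0.848 RPKM at EB D2, and 0.266 RPKM on average in TET WT at EB D4. Cdx1 rose by 1.54, and both tested Cdx genes differed from TET WT, though neither did on recovered reads. Of 34 Hox genes, 3 were called higher and 2 lower in TET KO, beside 7.89% higher and 3.6% lower over all genes tested, and after centring 1 was called higher and 2 lower, with the calls of Hoxa13 and Hoxd9 lost. Hoxb1, the earliest of the cluster in the streak, averaged 4.47 ± 0.15 RPKM at EB D4 and 1.31 ± 0.82 RPKM at EB D2.

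Naive pluripotency genes were called lower in part in each line. In TET KO 6 of 16 naive genes were called lower and 1 higher (median log2 change -0.76), against 12 lower and 0 higher in TET WT (median -1.5), and the difference was called higher for 6 and lower for 2. Against DNMT WT the difference was called higher for 0 and lower for 3 of the 16 (median -0.27). Several naive genes were already lower in TET KO at EB D2: Nr0b1 averaged 18.6 RPKM there and 76.4 RPKM in TET WT, and Gbx2 averaged 3.31 RPKM there and 16.9 RPKM in TET WT. Nanog was the naive member that rose. It had 87.7, 85.0 and 85.8 RPKM in TET KO at EB D4, against 25.8 and 25.9 RPKM at EB D2 (log2 change 1.72, SE 0.12, adjusted p = 4.14e-10). In TET WT it averaged 126 ± 21 RPKM at EB D4 and 84.3 ± 4.9 RPKM at EB D2 (SD, n = 3 each) and was not called. The difference of 1.16 was called as deposited and lost after centring. In DNMT WT, Nanog averaged 127.8 RPKM at EB D4 and 48.4 RPKM at EB D2, and the difference of 0.33 was not called (adjusted p = 0.262).

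Of 12 general pluripotency factors, 5 were called lower and 0 higher in TET KO (median log2 change -0.79), and 5 lower and 0 higher in TET WT (median -0.54). Dppa5a, a marker of pluripotent cells, averaged 293 RPKM at EB D4 and 1705 RPKM at EB D2 in TET KO. Pou5f1, the Oct4 gene, had 238, 237 and 225 RPKM in TET KO at EB D4, against 430.1 and 397 RPKM at EB D2 (log2 change -0.82, not called), and in TET WT it averaged 325 ± 74 RPKM at EB D4 and 414 ± 23 RPKM at EB D2. Sox2 had 23.96, 24.9 and 27.1 RPKM at EB D4 in TET KO, against 90.9 and 89.6 RPKM at EB D2, and fell by 1.81. Utf1, a chromatin factor of pluripotent cells, had 52.8, 41.9 and 44.6 RPKM in TET KO at EB D4, against 365 and 362 RPKM at EB D2. Utf1 fell by 2.96 in TET KO, while in TET WT its log2 change was -0.61 and not called, a difference of -2.35.

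**Figure D4:**
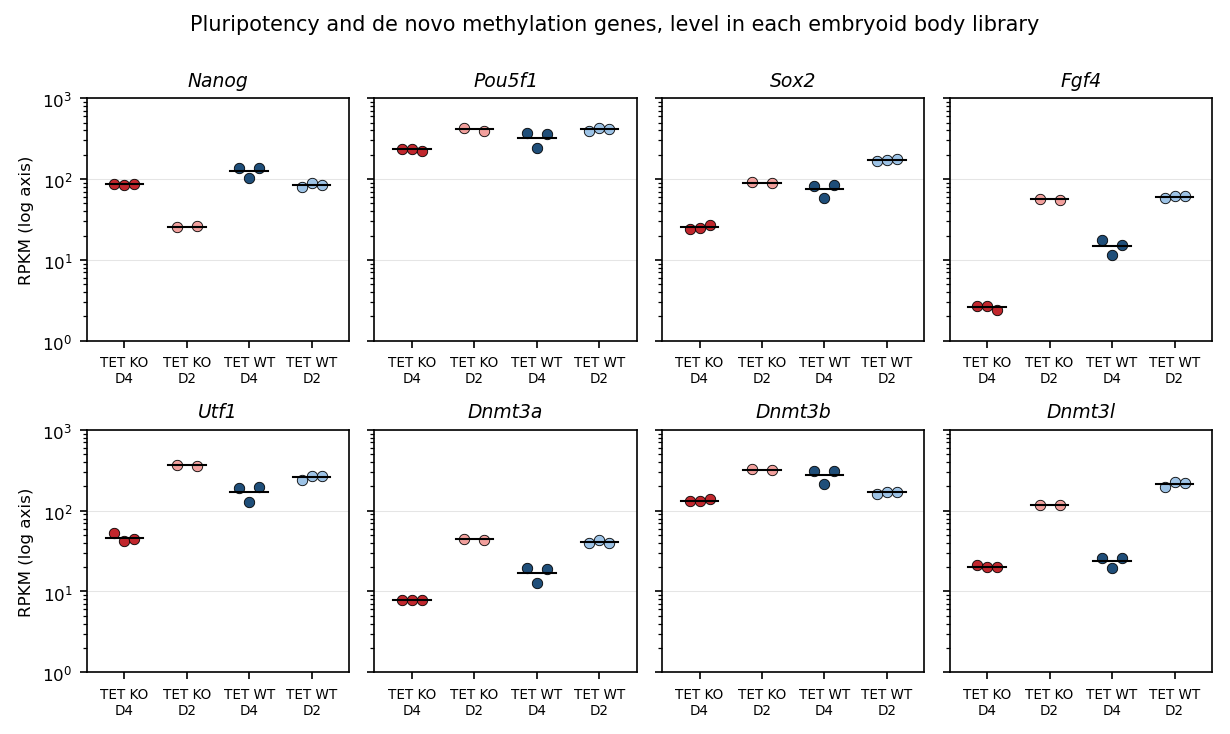
Each panel gives 1 gene in RPKM on a log axis, with 1 point per library and a line at the group mean, for TET KO (red) and TET WT (blue) at EB D4 and EB D2. Nanog lies higher at EB D4 in TET KO, Fgf4, Utf1 and Dnmt3a lie lower at EB D4 in TET KO than in TET WT, and Dnmt3b lies lower at EB D4 in TET KO and higher at EB D4 in TET WT.

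Formative and primed epiblast genes were called lower for 5 of 13 members in TET KO and higher for 1 (Cdh2), against 2 lower and 2 higher in TET WT, and the difference was called lower for 6 and higher for 1. Pou3f1, a POU factor of the epiblast, averaged 6.14 RPKM at EB D4 and 40.7 RPKM at EB D2 in TET KO, and 27.6 RPKM at EB D4 and 38.5 RPKM at EB D2 in TET WT, a difference of -2.13. Foxd3, which holds cells in the epiblast state, averaged 1.52 RPKM at EB D4 and 11.3 RPKM at EB D2 in TET KO, and 14.8 RPKM at EB D4 and 19.4 RPKM at EB D2 in TET WT, a difference of -2.14. Sox3 averaged 5.68 RPKM at EB D4 and 22.8 RPKM at EB D2 in TET KO, and 19.4 RPKM at EB D4 and 19.08 RPKM at EB D2 in TET WT. All 3 genes were less far apart between the lines at EB D2 than at EB D4. Fgf5, the usual marker of primed epiblast, averaged 62.9 RPKM at EB D4 and 31.8 RPKM at EB D2 in TET KO, and its log2 change of 0.98 was just short of a call.

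The de novo DNA methyltransferases fell. Of 16 genes of DNA methylation, 6 were called lower in TET KO (Dnmt3a, Dnmt3b, Dnmt3l, Zfp57, Gadd45a and Gadd45g) and 0 higher. Dnmt3a had 7.78, 7.74 and 7.74 RPKM at EB D4, against 44.4 and 43.6 RPKM at EB D2 (log2 change -2.43, SE 0.14, adjusted p = 1.25e-11), and it fell by 1.26 in TET WT. Dnmt3b had 130.3, 130.5 and 138 RPKM at EB D4, against 325 and 317 RPKM at EB D2. In TET WT, Dnmt3b averaged 278 ± 54 RPKM at EB D4 and 168 ± 5 RPKM at EB D2 (SD, n = 3 each), a log2 change of 0.71 that was not called, and the difference of -1.98 was called. Dnmt3l fell in both lines, by 2.49 in TET KO and 3.15 in TET WT. Dnmt1, the maintenance enzyme, averaged 33.6 RPKM at EB D4 and 31.5 RPKM at EB D2 in TET KO and was not called.

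Of 18 germline genes known to be silenced by promoter methylation, 6 were called lower in TET KO and 0 higher, against 7 lower and 2 higher in TET WT. Tex19.1 averaged 25.8 RPKM at EB D4 and 82.2 RPKM at EB D2 in TET KO, and 5.20 RPKM at EB D4 and 35.1 RPKM at EB D2 in TET WT. Among two-cell-like genes, whose close copies make single members uncertain, 1 of 13 was called higher and 1 lower in TET KO, against 8 lower in TET WT. The higher call, Tdpoz4, was lost after centring, after quantile normalization and under other settings. The lower call, Zscan4d, was lost with a pseudocount of 1, with the replicate block and without replicate 3 at EB D4. After centring, 0 members were called higher and 2 lower in TET KO. The median of that list was 0.39 in TET KO and -1.21 in TET WT.

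The largest falls outside these lists were led by Epas1, a hypoxia-inducible factor. It had 1.23, 1.36 and 1.67 RPKM in TET KO at EB D4, against 32.2 and 31.4 RPKM at EB D2, and fell by 4.08 there and by 3.82 in TET WT. Tsx, Nphs1, Kirrel2, Platr7, Cdk5r2, Halr1 and Pipox fell in both lines. Chac1, which degrades glutathione, averaged 1.88 RPKM at EB D4 and 22.8 RPKM at EB D2 in TET KO, and 5.002 RPKM at EB D4 and 8.68 RPKM at EB D2 in TET WT. Cbr3, a carbonyl reductase, had 1.11, 2.07 and 1.56 RPKM in TET KO at EB D4, against 19.5 and 19.5 RPKM at EB D2, and its difference of -3.94 was the most negative of the genes named by the rule. Cbr3 averaged 6.12 RPKM at EB D4 and 3.66 RPKM at EB D2 in TET WT, and in DNMT WT it fell, to 13.3 RPKM at EB D4, against 33.0 RPKM at EB D2, so that the wild-type lines disagreed.

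Interferon response genes formed another group with rises in TET KO. Of 16 tested members, 7 were called higher in TET KO and 0 lower (median log2 change 0.91), against 2 higher in TET WT (median 0.04), and the difference was called higher for 9 and lower for 0. Isg15, a ubiquitin-like protein induced by interferon, had 17.6, 15.1 and 12.7 RPKM in TET KO at EB D4, against 0.421 and 0.121 RPKM at EB D2, and differed from TET WT by 4.06. Usp18, which dampens the response, averaged 3.11 RPKM at EB D4 and 0.0681 RPKM at EB D2, and Ifit1 averaged 2.66 RPKM at EB D4 and 0.226 RPKM at EB D2. B2m, the light chain of MHC class I, rose in both lines, by 2.44 in TET KO and 2.60 in TET WT.

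Imprinted genes were called higher for 5 of 23 members in TET KO and lower for 0, and for 1 and 1 after centring, against 6 higher and 2 lower in TET WT. Cdkn1c, a maternally expressed cell cycle inhibitor, had 21.02, 21.4 and 20.98 RPKM in TET KO at EB D4, against 9.52 and 8.51 RPKM at EB D2. It fell in TET WT, to 3.50 ± 0.85 RPKM at EB D4, against 18.6 ± 1.3 RPKM at EB D2 (SD, n = 3 each), and the difference was 3.46. The TET KO rise of 1.19 was lost after centring. Peg3, a paternally expressed zinc-finger gene, averaged 67.1 RPKM at EB D4 and 18.2 RPKM at EB D2 in TET KO, and 12.7 RPKM at EB D4 and 14.4 RPKM at EB D2 in TET WT. Lgals3, the lectin galectin-3, which is not in these lists, moved oppositely in the lines: it had 10.5, 12.6 and 8.06 RPKM in TET KO at EB D4, against 0.742 and 0.442 RPKM at EB D2, and averaged 1.45 RPKM at EB D4 and 7.26 RPKM at EB D2 in TET WT.

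Lists of general cell functions are set beside the 7.89% called higher and 3.6% called lower over all genes tested. Of 17 glycolysis genes 1 was called higher and 1 lower in TET KO, and of 14 p53 targets 1 higher. For 13 G1 cyclins and CDK inhibitors the counts were 1 higher and 1 lower, and for 12 housekeeping genes 1 higher (B2m). Among 83 ribosomal protein genes 0 were called higher and 3 lower (Rpl10l, Rpl39l and Rpl3l), with a list median of 0.01. The Rpl3l call was lost with a pseudocount of 1 and without either replicate 2 at EB D2 or replicate 1 at EB D4.

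The levels at the other days place EB D4 in the course of culture, described here with no test. In TET KO, T averaged 6.10, 0.272, 394, 15.7 and 12.3 RPKM on day 0 (as ESCs), 2, 4, 6 and 8. In TET WT it averaged 3.38, 0.0353, 7.40, 21.1 and 0.265 RPKM over the same days, so that its highest day among those sampled was EB D6. Mixl1 had the same order of days, with 186 RPKM on day 4 and 14.8 RPKM on day 6 in TET KO, and 1.33 RPKM on day 4 and 13.9 RPKM on day 6 in TET WT. The levels of T and Mixl1 at EB D4 in TET KO were above those of TET WT at any day sampled.

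Mesp1 did not share that last feature. It averaged 9.91 ± 1.08 RPKM on day 4 and 4.77 ± 0.30 RPKM on day 6 in TET KO, and 0.0759 ± 0.0130 RPKM on day 4 and 24.1 ± 3.6 RPKM on day 6 in TET WT (SD, n = 3 each). Among the days sampled, its highest level thus came later in TET WT and was higher there, and levels between those days are not known. Aplnr averaged 20.4, 22.1 and 21.1 RPKM on days 4, 6 and 8 in TET KO, against 0.163, 30.4 and 18.1 RPKM in TET WT. Cdh2 averaged 23.98, 22.04 and 21.9 RPKM over those days in TET KO, against 1.78, 17.9 and 10.5 RPKM in TET WT. For Aplnr and Cdh2, the TET KO level on day 4 lay within 1.5 times the TET WT level of day 6.

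Nanog averaged 502, 25.8, 86.2, 3.98 and 27.3 RPKM on days 0, 2, 4, 6 and 8 in TET KO, and 467, 84.3, 126, 13.97 and 8.37 RPKM in TET WT over the same days, with a second, smaller high at EB D4 in each line. Pou5f1 averaged 233, 8.64 and 70.02 RPKM on days 4, 6 and 8 in TET KO, and 325, 28.3 and 13.1 RPKM in TET WT. Tal1 averaged 1.55 RPKM in TET KO at EB D8, against 21.7 RPKM in TET WT.

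**Figure D5:**
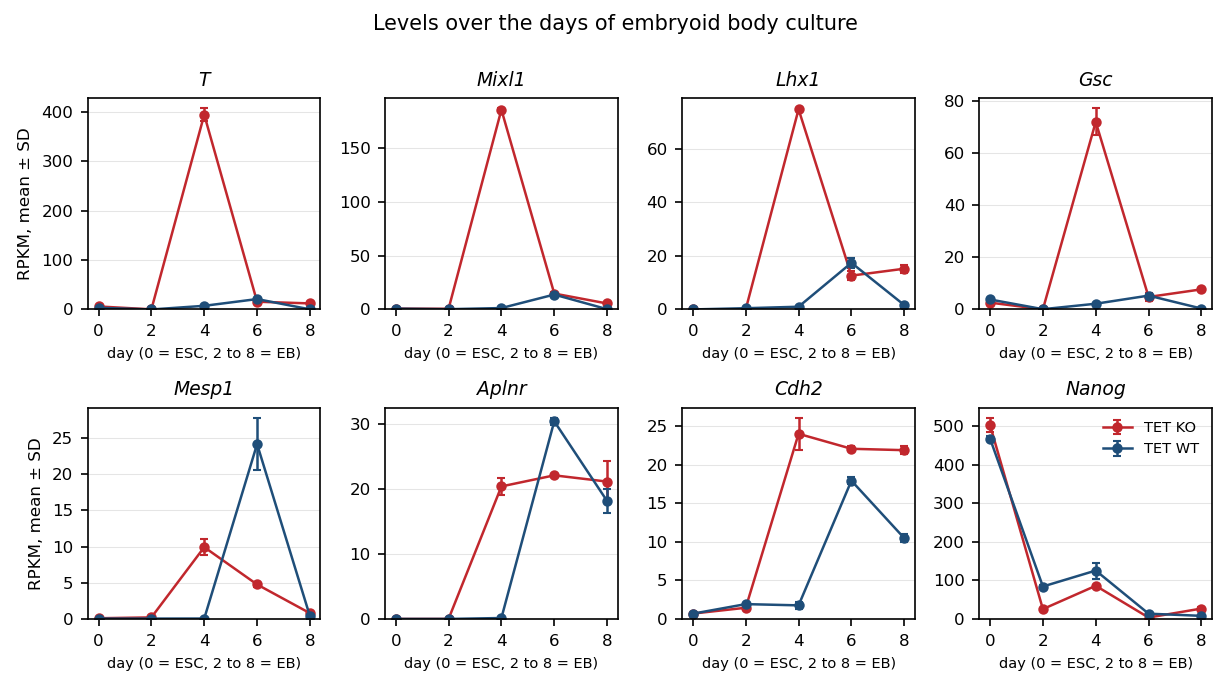
Each panel gives the mean level of 1 gene in RPKM with its SD (n = 2 or 3 libraries) at day 0 as ESCs and at days 2 to 8 as embryoid bodies, for TET KO (red) and TET WT (blue). T, Mixl1, Lhx1 and Gsc are highest at day 4 in TET KO and at day 6 in TET WT, and Mesp1 reaches 24.1 RPKM at day 6 in TET WT against 9.91 RPKM at day 4 in TET KO.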

How the data were processed

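Embryoid bodies were measured by RNA sequencing. The labels' protocols give column purification, a DNase step and strand-specific libraries of oligo-dT selected RNA. The submitters' processing notes name Trim Galore 0.6.1, cutadapt 1.18, HISAT2 2.1.0 and GRCm38. What counted the reads, and over which annotation, is not stated there. For each gene and library the authors deposited a log2 RPKM value, which was converted to RPKM. The 5 TET KO libraries were fitted with limma 3.58.1 in R 4.3.3 together with the other libraries of the 4 genotypes at EB D4 and EB D2 (21 in all), with a mean per group and eBayes with trend and robust settings, two-sided. TET KO at EB D2 has 2 libraries and so borrows the spread of the other groups, DNMT KO among them. The test covered 15267 of 35230 genes, those that reached 1 RPKM in 2 or more of the series' 79 libraries. The pseudocount of 0.5 RPKM understates the change of low genes. It can do so unequally in the lines, so that a difference between lines can come out too large or too small. Call rules, list counts and lower bounds are as given with the results. Lists are described by counts and medians with no set test.

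Reads were recovered from the steps of the values: 97% of values between 0.5 and 100 reads were whole within 0.1, and 34815 genes gave reads. Depth was 7.76 to 13.9 M reads over all libraries, and intervals cover counting error only. Replicates correlated at 0.983 or above, and no pair was taken for 1 library. Groups came from the labels. The members, lists and rules were chosen with earlier results of these data known. The rule named Tet1, Tet2 and Tet3, the 12 largest rises and 12 largest falls in TET KO at 5 RPKM or more in the higher group with libraries of the days not overlapping, the most changed called members (4 at most) of each of 38 lists, the 6 largest differences from TET WT in each direction, and fixed defining factors. Other list members given with values (Fst, Sp8, Wnt8a, Tdgf1, Frzb, Chrd, Krt18, Afp, Apoa1, Ttr, Hnf4a, Hbb-bh1, Lef1, Nodal, Lefty2, Cdh1, Cldn6, Fgf5, Sox3, Ifit1, Id2, Dnmt1 and Tcf15) were chosen after their values were seen. Alternatives were other pseudocounts, filters, scalings, sets of libraries, voom on recovered reads, a replicate block and each replicate left out. Sequences are from RefSeq.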

Additional observations from a re-analysis of the deposited data

Results flagged for a closer look

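The tests of the difference between the lines, which are interaction contrasts of the limma fit, flagged the following results. The change of EB D4 against EB D2 differed between TET KO and TET WT for 1337 genes, and between TET KO and DNMT WT for 889 genes. Among streak and organiser genes, the TET KO change minus the TET WT change was 6.41 for Lhx1, 6.14 for Mixl1, 5.12 for T, 4.84 for Gsc and 4.38 for Dkk1 on the log2 scale. Mesoderm, endoderm and migration genes differed by 4.97 for Aplnr, 3.94 for Apln, 3.80 for Mesp1 and 3.29 for Sox17. The mesenchymal genes Cdh2 and Vim differed by 3.75 and 3.22.

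Genes that moved in opposite directions in the lines included Lgals3 at 5.33 and Cdkn1c at 3.46, both called higher in TET KO and lower in TET WT, and Foxi3 at -2.82, called lower in TET KO and higher in TET WT. Isg15 differed by 4.06 and Nanog by 1.16. Negative differences were found for Cbr3 at -3.94, Tmem54 at -2.59, Utf1 at -2.35 and Dnmt3b at -1.98, all of which fell in TET KO. Tubb4a at -3.23, Pga5 at -2.94 and Spink1 at -2.83 rose in TET WT and were not called in TET KO. Against DNMT WT the difference was called for Tubb4a (-2.52) and not for Pga5 (-1.02, adjusted p = 0.117) or Spink1 (-0.61, adjusted p = 0.792). Tubb4a averaged 6.37 RPKM in TET KO at EB D2 already, against 0.790 RPKM in TET WT. Spink1 rests on uneven libraries, with 2.87, 0.637 and 0.211 RPKM in TET KO at EB D4, and Pga5 had a ratio of summed reads near 1 in TET KO (1.03, exact 95% counting interval 0.1995 to 6.602).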

How the results depend on the processing

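For TET KO, 1204 genes were called higher and 550 lower as reported. The higher count became 1779 with a pseudocount of 0.1, 848 with a pseudocount of 1, 811 after centring and 1831 on recovered reads fitted with voom. The lower count became 847 with a pseudocount of 0.1, 375 with a pseudocount of 1, 864 after centring each library on its median and 920 with voom. For TET WT, 790 were higher and 749 lower: the higher count became 1322 with a pseudocount of 0.1, 504 with a pseudocount of 1 and 1497 with voom, and the lower count 1140 and 1197 with a pseudocount of 0.1 and with voom. Differences from TET WT called higher numbered 939, against 652 with a pseudocount of 1 and 629 after centring. Those called lower numbered 398, against 254 with a pseudocount of 1, 623 after centring and 619 with voom. The cause was not tested. Leaving out 1 replicate at a time gave 1198 to 1279 higher and 552 to 577 lower in TET KO, 697 to 1038 and 648 to 839 in TET WT, 767 to 1066 and 340 to 539 for the difference from TET WT, and 581 to 620 and 245 to 278 for that from DNMT WT. Same-numbered deviations from the group mean correlated at 0.042 and -0.027 in TET KO and at -0.233 to 0.139 in TET WT. These values do not settle whether the replicate numbers pair the samples, which the labels do not state. With 2 TET KO libraries at EB D2, the deviations of those libraries mirror each other. In TET WT the highest value, 0.332, joined replicate 2 at EB D4 and replicate 1 at EB D2, the libraries with most reads on Gm42418. A fit with the replicate block gave 1187 higher and 544 lower in TET KO, 785 and 744 in TET WT, 918 and 400 for the difference from TET WT and 586 and 270 for that from DNMT WT. Of 153 called single-gene results, 129 were called under every setting run for them, 0 reversed, 14 were lost after centring and 16 with a pseudocount of 1, among them Tet2. Voom moved 34 of 150 called values to more than 1.5 times their size among them the differences for Lhx1 (9.83), Dkk1 (7.68), Sox17 (6.44) and Mesp1 (5.99), and made that for T smaller (2.31). Low levels limit Spink1, whose difference was lost under several settings, and genes with few reads at EB D2.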
